A study of Arabidopsis thaliana with 30 samples.

Results

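The transcripts described here are those that changed when seedlings of the Arabidopsis thaliana mutant snrk1a were given antimycin A. They are the 4115 genes that the authors' deposited table lists for this mutant, out of 23834 genes that they had tested in it (17.3%), and every listed gene was taken. Over all 5 lines of the study, 6297 genes are listed at least once. The treated group was snrk1a seedlings, allele snrk1a-2 in the sample titles, given 50 µM antimycin A for 5 h, and the other group was mock-treated snrk1a seedlings. Each group held 3 libraries of RNA from whole seedlings, 10 days old, raised on agar medium with sucrose and moved to wells of liquid medium. The other lines are SnRK1aOX, which overexpresses SnRK1a, the mutants jmj15 (jmj15-2 in the titles) and crf6 (crf6-2 in the titles), and the wild type Col-0 (WT), each with its own treated and mock libraries, 30 libraries in all. The columns of the mutant carry the name kin10-2, and KIN10 is another name of SnRK1a. KIN10 (AT3G01090) is not among the listed genes, so its level could not check the label of the mutant. The labels give 1 allele. They do not say whether a group's 3 libraries came from different cultures, and the spread on which each p-value rests may therefore be technical.

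SnRK1 is the plant relative of the yeast kinase Snf1 and of animal AMPK, a protein kinase complex that acts when sugar or energy is short and that switches on genes for the breakdown of reserves. SnRK1a (KIN10) is one of its catalytic subunits, and KIN11 is a close relative. Antimycin A blocks complex III of the mitochondrial respiratory chain. Plants can pass electrons around that block through alternative oxidase. The nucleus answers the block with a set of genes known as the mitochondrial dysfunction stimulon, which is switched on by NAC transcription factors released from the endoplasmic reticulum.

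Values are normalised read counts, taken as adjusted by the authors for library size. They are not divided by gene length, so levels are compared between libraries and not between genes. A gene is listed where the authors' q was under 0.05 and their log2 fold change was beyond 1 in either direction. Genes outside the list have no value here and cannot be called unchanged. The log2 ratio of a gene is log2((mean antimycin A + 1)/(mean mock + 1)). A change given with ± is the difference of the mean log2(value + 1), antimycin A minus mock, with its standard error from a limma refit of the 6 libraries. A gene is said to have risen or fallen where that refit had a Benjamini-Hochberg adjusted p under 0.05, and to be listed as higher or lower where only the authors' call is meant. The refit used the values by which the authors had chosen the genes, so it adds an error and is not independent support for a call.

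Of the 4115 genes, 1709 were listed as higher with antimycin A (7.17% of the genes tested) and 2406 as lower (10.1%). The median log2 ratio was 1.54 among the higher genes and -1.64 among the lower. By the refit 1423 genes rose (5.97% of the genes tested) and 1969 fell (8.26%). Treated and mock libraries did not overlap in 3965 of the 4115 genes (96.4%). The authors' log2 fold change was beyond 3 in 153 higher and 314 lower genes. All treated libraries were below 0.5 in 99 genes, and all mock libraries in 50. The largest log2 ratio of all belonged to AT1G60750, annotated as an NAD(P)-linked oxidoreductase. It had 299.8, 202 and 311 with antimycin A and was listed at 0 in each mock library, so no fold is given.

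**Figure D1:**
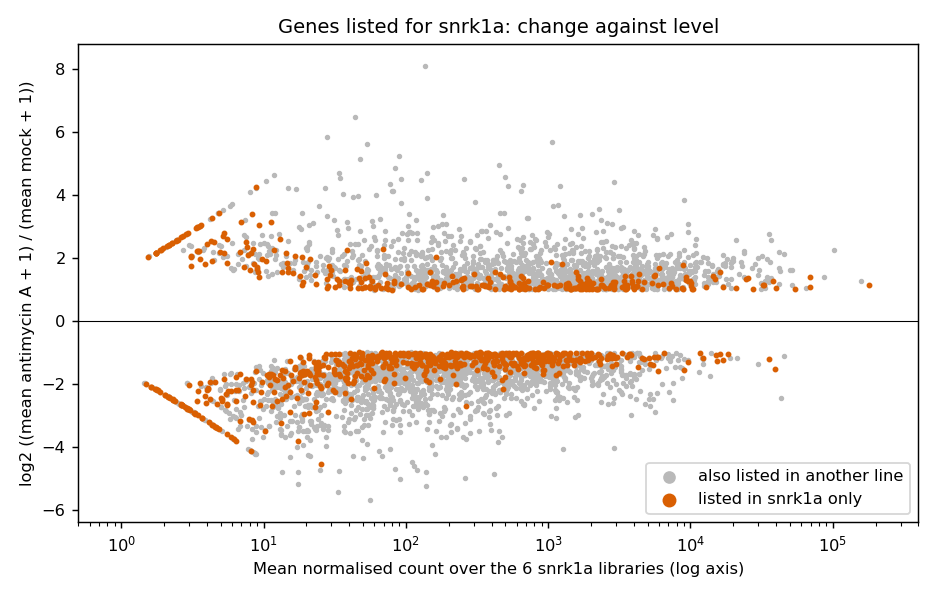
Each point is 1 of the 4115 genes listed for snrk1a. The x axis is its mean normalised count over the 6 libraries (log axis) and the y axis its log2 ratio of antimycin A over mock. Orange points are the 914 genes listed in no other line and grey points the 3201 also listed in another line. Many orange points lie close to a ratio of 1 or -1, and the straight edges at low counts are genes with 1 group at or near 0 in all its libraries.

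The libraries of a group were not alike. The third treated library held the highest of the 3 treated values in 1238 of the 1709 higher genes (72.4%), where an even split would give 33.3%. Without that library 1252 genes rose and 1768 fell. The first mock library was the highest mock library in 42.6% of the listed genes and in 23 of the 27 listed heat shock genes. Without it 1314 genes rose and 1514 fell. The fewest changes were found without the third mock library, 1232 rises and 1453 falls.

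The largest rises were led by a glutathione transferase and by small heat shock proteins. Ranking was by log2 ratio among genes that passed the refit, had separate groups and whose mean level was no lower than the median of the table. GSTU3 (AT2G29470), a tau-class glutathione transferase, had 1878, 1496 and 2874 with antimycin A and 80.6, 27.9 and 11.9 in mock, and rose by 6.01 ± 0.57 (adjusted p = 2.60e-04 in limma). All treated libraries were far above all mock libraries, and the mock libraries themselves spread widely. HSP22 (AT4G10250), a chaperone of the endoplasmic reticulum, had 906, 720.1 and 1005 with antimycin A and 50.5, 16.4 and 15.6 in mock, and rose by 5.14 ± 0.43. HSP17.6A (AT5G12030), a cytosolic small heat shock protein, had 5430.3, 4494 and 6692 with antimycin A and 633, 58.9 and 88.9 in mock, a change of 5.18 ± 0.71. In both genes the groups lay far apart and the first mock library stood above the other two. HSP26.5 rose by 4.73 ± 0.42, the plastid protein HSP21 by 4.48 ± 0.38 and HSP17.6II by 4.49 ± 0.41.

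The other 4 of the 10 largest rises were of several kinds. ABCG40 (AT1G15520), a transporter of the ABC family known to import abscisic acid, had 16453, 12686 and 21478 with antimycin A and 3005, 297 and 260.2 in mock. Its first mock library was again the highest of its group, and the change was 4.74 ± 0.77 over all libraries and between 4.12 and 5.88 with 1 library left out. AT1G71520, annotated as an integrase-type DNA-binding protein, had 788, 902 and 1302 with antimycin A and 46.3, 64.8 and 40.9 in mock, and rose by 4.27 ± 0.28. The groups were far apart. BGLU28 (AT2G44460), a beta-glucosidase, rose by 4.22 ± 0.42, and ACA2 (AT2G28210), an alpha carbonic anhydrase, by 4.93 ± 0.63. Of these 10 genes all were listed in all 5 lines.

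The 10 largest falls were of several kinds as well. CYP702A5 (AT4G15393), a cytochrome P450 of the root triterpene list, had 19.6, 5.79 and 20 with antimycin A and 511, 576 and 425 in mock, a change of -5.13 ± 0.45. AT3G01260, annotated as a galactose mutarotase-like protein, had 26.2, 30.2 and 24.1 with antimycin A and 1044, 548 and 827 in mock, a change of -4.82 ± 0.30. PER64 (AT5G42180), a peroxidase of the Casparian strip, had 24, 48.5 and 35.6 with antimycin A and 589, 432 and 448 in mock, a change of -3.77 ± 0.32. In each of these genes the highest treated library was far below the lowest mock library. GSTF14, a phi-class glutathione transferase, changed by -4.13 ± 0.36, and XTH31, which remodels xyloglucan in the cell wall, by -4.07 ± 0.38. CYP735A2, which makes trans-zeatin cytokinins, changed by -3.70 ± 0.35, the lectin AT1G52060 by -3.92 ± 0.33, the proline-rich cell wall protein PRP1 by -3.59 ± 0.36 and the TRAF-like protein AT3G20380 by -3.47 ± 0.26. BGLU34 (AT1G47600), a root myrosinase, changed by -4.28 ± 0.80, but it shares near-identical sequence with AT1G51470, so its counts are uncertain. All but AT1G52060 were listed in all 5 lines.

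**Figure D2:**
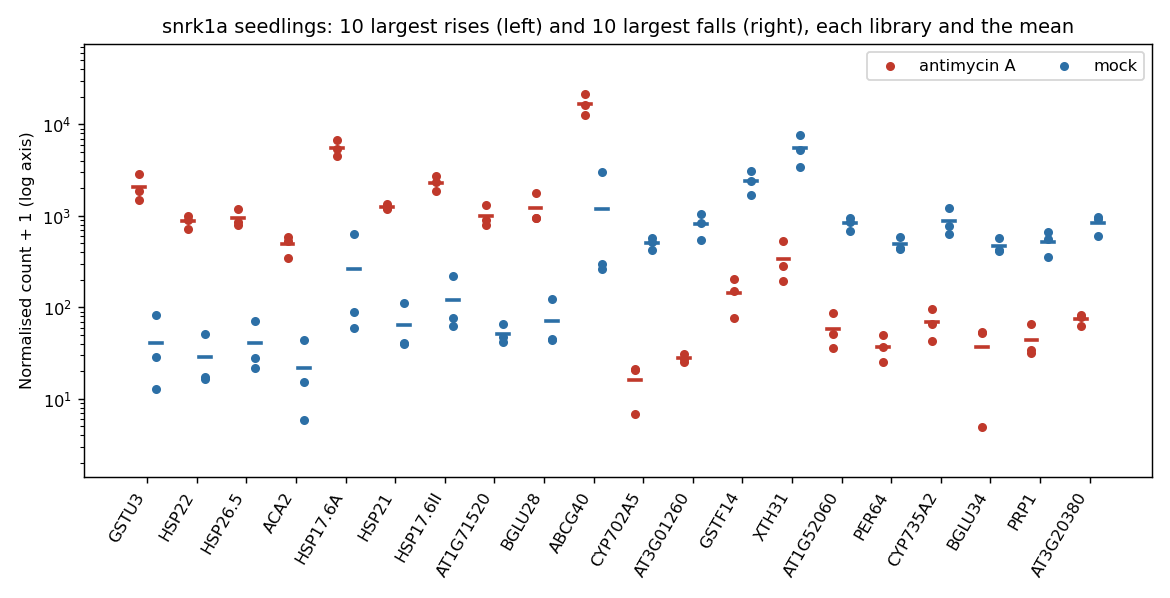
Normalised counts plus 1 (log axis) of the 10 genes with the largest rises (left) and the 10 with the largest falls (right) in snrk1a. Red points are the 3 antimycin A libraries and blue points the 3 mock libraries, with the mean as a bar. The genes had been chosen to have separate groups, so no red point lies among the blue points of its gene. In HSP17.6A and ABCG40 1 blue point stands well above the other two.

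Genes were then counted on 25 lists by pathway. Against shares of 7.17% listed as higher and 10.1% as lower among all genes tested, members of the mitochondrial dysfunction, heat shock, camalexin and rapid stress lists were mostly higher. Members of the root hair, endodermis, cell cycle and root triterpene lists were mostly lower.

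**Figure D3:**
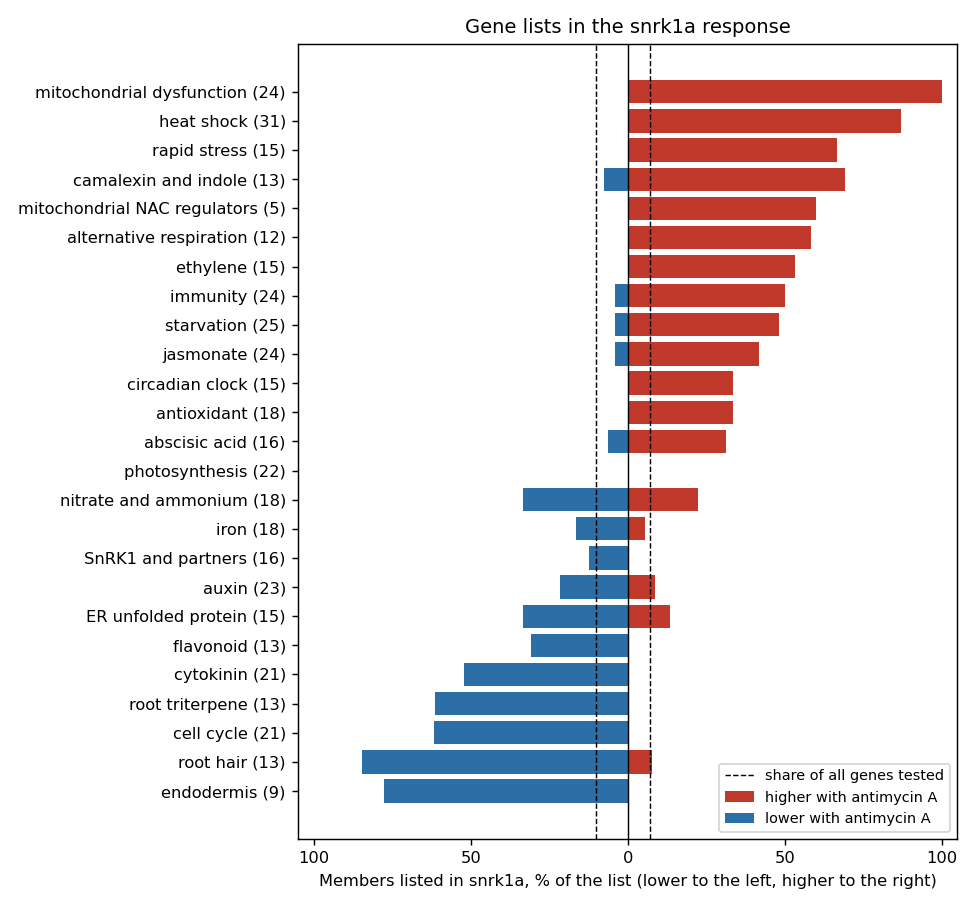
Share of the members of each list (number of members in brackets) that the authors listed as higher (red, right) or lower (blue, left) in snrk1a with antimycin A. Dashed lines are the shares among all genes tested. All 24 mitochondrial dysfunction genes lie on the higher side, 13 of 21 cell cycle genes on the lower side, and none of the 22 photosynthesis genes was listed.

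Heat shock genes, which code for chaperones and their regulators, were higher in 27 of 31 members and all 27 rose. HSFA7A, HSFB2B, FES1A and CLPB3 are not listed. The median log2 ratio of the 27 was 2.83, beside 1.54 over all higher genes. The disaggregase HSP101 rose by 2.92 ± 0.24, the chaperones HSP90.1 and HSP70 by 3.03 ± 0.41 and 2.09 ± 0.31, and the factors DREB2A and HSFB1 by 2.87 ± 0.30 and 1.09 ± 0.20. HSFA2 (AT2G26150), the factor that maintains the heat response, had 975, 803 and 1323 with antimycin A and 366, 123 and 119 in mock, and rose by 2.53 ± 0.41. Its treated libraries lay above all mock libraries, of which the first was the highest. HSP17.4 and MBF1C share near-identical sequence with another annotated locus, so their counts are uncertain. HSP23.5 and HSFB1 were listed in no other line. All 27 rose also with each library left out.

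The heat shock element is the site to which heat shock factors bind. Its core was searched as GAANNTTC, which reads the same on both strands, in the 250 bases before the annotated start of each gene. It was found in 8 of the 27 higher heat shock genes (29.6%) and in 1 of the 4 members that are not listed. The share was 13.7% of 1670 higher nuclear genes, 7.81% of 2406 lower genes and 9.55% of all 27443 nuclear protein-coding genes. HSP26.5 and HSP21, both among the 10 largest rises, are shown with the match in capitals. Their sequences come from the RefSeq annotation of build TAIR10.1, both on the minus strand, at chr1:19575867-19576116 and chr4:13819972-13820221. The match begins 48 bases before the start of HSP26.5 and 100 bases before that of HSP21.
HSP26.5: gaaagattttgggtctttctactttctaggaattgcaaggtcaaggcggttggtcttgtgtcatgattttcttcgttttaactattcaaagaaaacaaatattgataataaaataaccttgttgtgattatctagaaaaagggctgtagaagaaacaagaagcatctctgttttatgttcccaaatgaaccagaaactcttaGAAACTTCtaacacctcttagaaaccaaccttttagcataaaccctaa
HSP21: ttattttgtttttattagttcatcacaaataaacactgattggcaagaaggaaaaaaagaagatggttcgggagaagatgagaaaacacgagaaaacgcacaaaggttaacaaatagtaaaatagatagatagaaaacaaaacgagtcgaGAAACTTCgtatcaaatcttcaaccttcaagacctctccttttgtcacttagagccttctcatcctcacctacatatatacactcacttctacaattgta

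Genes of the mitochondrial stress response rose in all 24 members of the mitochondrial dysfunction list, also with each library left out. Their median log2 ratio was 2.02. UGT74E2 (AT1G05680), which glucosylates the auxin indole-3-butyric acid, had 60595, 50908 and 74194 with antimycin A and 9596, 10399 and 7323 in mock, and rose by 2.76 ± 0.21 (adjusted p = 1.59e-04 in limma). The groups were far apart. ZAT12 (AT5G59820), a zinc finger factor of oxidative stress, rose by 2.98 ± 0.23, the cytochrome P450 genes CYP81D11 and CYP81D8 by 2.86 ± 0.41 and 2.53 ± 0.21, and the transporter ABCB4 by 2.26 ± 0.20. OM66 (AT3G50930), an ATPase of the outer mitochondrial membrane, rose by 1.91 ± 0.23, and UPOX (AT2G21640), a mitochondrial protein known from oxidative stress, by 1.69 ± 0.20. DTX1, a MATE transporter that also rose (2.05 ± 0.25), shares near-identical sequence with another locus.

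Of the 24 genes DTX4, HSP23.5, NDB4, DTX3 and AT12CYS-2 were listed in no other line. DTX4 (AT2G04070), a MATE transporter, had 14686, 15533 and 11011 with antimycin A and 3319, 4224 and 4587 in mock, and rose by 1.76 ± 0.20. HSP23.5 (AT5G51440), a small heat shock protein of mitochondria, had 13713, 13389 and 12449.9 with antimycin A and 5159.6, 5204 and 5821 in mock, and rose by 1.29 ± 0.15. In both genes the groups did not overlap. In the tables of the other lines 17 of the 24 were listed as higher in SnRK1aOX (5.55% of all genes tested there), 19 in jmj15 (6.63%), 19 in crf6 (6.97%) and 18 in WT (5.83%).

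The bypass of the respiratory chain was part of this. On the alternative respiration list 7 of 12 members were higher and 6 rose, at a median log2 ratio of 2.03. AOX1A (AT3G22370), the main stress-induced alternative oxidase, had 61972, 59652 and 70316 with antimycin A and 16823, 22266 and 20777 in mock, and rose by 1.69 ± 0.19. NDB2 (AT4G05020), an external NADH dehydrogenase that bypasses complex I, had 15895, 14091 and 16658 with antimycin A and 3847, 4241 and 3332 in mock, and rose by 2.03 ± 0.16. In both genes every treated library was well above every mock library. AOX1D rose by 2.16 ± 0.26, AOX1B by 2.04 ± 0.38, the internal dehydrogenase NDA2 by 1.70 ± 0.18 and NDB4 by 1.47 ± 0.20. AOX2, at 1.19, 2.79 and 13.1 with antimycin A and listed at 0 in each mock library, did not pass. On the list of NAC regulators NAC013 rose by 1.60 ± 0.16, NAC053 by 1.56 ± 0.19 and NAC016 by 1.04 ± 0.21, while NAC017 and NAC078, the other two of the 5, are not listed. The matrix chaperone mtHsc70-1 (AT4G37910), named after its values had been seen, had 72452, 80160.4 and 65759 with antimycin A and 34308, 35929 and 38121 in mock. It rose by 1.01 ± 0.18 and was listed in no other line.

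NAC013 and its relatives bind the mitochondrial dysfunction motif, CTTG, then 5 bases of any kind, then CAAG or CACG. On either strand it was found in 5 of these 24 promoters (20.8%) and in 2.93% of the higher nuclear genes. The share was 0.374% of the lower genes and 1.20% of all nuclear protein-coding genes. All 24 members are listed, so the list offers no unlisted member to set beside them. CYP81D8 and NDB2, which have the largest log2 ratios among the 5, are shown with the motif in capitals, from RefSeq and build TAIR10.1. CYP81D8 lies on the minus strand, with its promoter at chr4:17571744-17571993, and NDB2 on the plus strand, at chr4:2572177-2572426.
CYP81D8: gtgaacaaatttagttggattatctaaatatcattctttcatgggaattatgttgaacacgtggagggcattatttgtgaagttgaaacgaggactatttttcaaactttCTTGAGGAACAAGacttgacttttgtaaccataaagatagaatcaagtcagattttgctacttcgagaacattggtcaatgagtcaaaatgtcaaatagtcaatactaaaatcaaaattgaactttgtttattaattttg
NDB2: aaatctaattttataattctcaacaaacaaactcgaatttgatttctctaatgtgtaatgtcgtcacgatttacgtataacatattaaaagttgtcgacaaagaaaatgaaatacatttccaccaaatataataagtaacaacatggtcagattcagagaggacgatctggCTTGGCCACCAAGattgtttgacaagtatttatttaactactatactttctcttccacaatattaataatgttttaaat

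Transcripts with IDs of the mitochondrial genome were listed as higher as well. There were 30 of them, with log2 ratios between 1.11 and 2.71, and 15 rose by the refit. Only 5 of the 30 were listed in no other line. Their summed values were 2762, 2725 and 3645 with antimycin A and 915, 1316 and 1185 in mock. All 30 had been listed as higher, so the higher sums follow from that choice and are no further support. The 9 listed transcripts of the chloroplast genome were higher too and were listed in no other line, but 0 passed the limma refit, and 6 had an unadjusted p under 0.05. Their sums were 1439, 3511 and 4285 with antimycin A and 916, 1642 and 1730.2 in mock. The first treated library lay below 2 of the mock libraries in this sum. IDs of both organelle genomes were not searched for near-identical loci. Whether their reads came from copies elsewhere in the genome was not tested.

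Genes of detoxification rose beside the mitochondrial set. Of 27 tau-class glutathione transferases, which couple foreign compounds to glutathione, 15 were higher and 1 lower, and 14 rose, among them GSTU12 (3.23 ± 0.24) and GSTU4 (2.82 ± 0.30). Of 12 phi-class members 5 were higher, with GSTF8 at 2.07 ± 0.24 and GSTF6 at 1.90 ± 0.25, and 1, GSTF14, was lower. Of 58 UDP-glycosyltransferases, which attach sugars to small molecules, 21 were higher and 5 lower. UGT73B4 rose by 2.75 ± 0.26, and UGT72E2, which glucosylates lignin precursors, changed by -2.81 ± 0.30. Of 106 ABC transporters 22 were higher and 12 lower, with ABCB11 at 2.43 ± 0.18 and ABCG35 at -2.39 ± 0.17. Of 55 MATE transporters, counted after the values had been seen, 14 were higher and 5 lower, with AT3G23550 at 3.37 ± 0.31. The lower shares of UDP-glycosyltransferases (8.62%), ABC transporters (11.3%) and MATE transporters (9.09%) were near the 10.1% of all genes tested. Cytochrome P450 genes went both ways, 33 higher (14.7%, beside 7.17% of all genes tested) and 41 lower (18.3%) of 224. TGACG, the core bound by TGA factors known to act on such genes, was searched on both strands. It was found in 9 of the 16 listed tau-class promoters and in 2 of the 11 that are not listed. The share was 25.5% among the higher nuclear genes, 16.6% among the lower genes and 18.6% of all nuclear protein-coding genes.

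On the antioxidant list 6 of 18 members were higher and all 6 rose, at a median log2 ratio of 1.40. APX2 (AT3G09640), a cytosolic ascorbate peroxidase, had 77.6, 45.3 and 76.3 with antimycin A and 4.89, 0 and 0 in mock, a change of 5.18 ± 0.73 at low counts. GSH2 and GSH1, the enzymes that make glutathione, rose by 1.40 ± 0.22 and 1.20 ± 0.21, and the thioredoxin TRX-h8 by 1.42 ± 0.16. On the rapid stress list 10 of 15 rose at a median log2 ratio of 2.59. GRX480, a glutaredoxin, rose by 5.16 ± 0.67, the calmodulin-like CML39 by 4.92 ± 0.74 and ERF109, which has a near-identical locus, by 4.02 ± 0.56. The cold factors CBF1, CBF2 and CBF3 are not listed.

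Genes for ethylene synthesis and response rose together. On the ethylene list 8 of 15 members were higher, all 8 rose, none was lower, and the median log2 ratio was 1.44. ACC synthase is the committing enzyme of ethylene synthesis. ACS2 (AT1G01480), one of its genes, had 1705, 1815 and 1979 with antimycin A and 273, 511 and 294 in mock, and rose by 2.40 ± 0.25. ACS11 (AT4G08040), which is not on the list, had 1846, 1739.6 and 1347 with antimycin A and 598, 346 and 412 in mock, and rose by 1.89 ± 0.24. In both genes all treated libraries lay above all mock libraries. ACS6 rose by 1.44 ± 0.17, ACS7 by 1.42 ± 0.18 and ACS8 by 1.09 ± 0.19. ACS7, ACS8 and ACS11 were listed in no other line. Of the 15 members 2 were higher in SnRK1aOX (5.55% of all genes tested there), 6 in jmj15 (6.63%), 6 in crf6 (6.97%) and 3 in WT (5.83%), and 1 was lower in jmj15. The ethylene response factors ERF6 (2.46 ± 0.25), ERF2 (1.50 ± 0.19), ERF1 (1.44 ± 0.26) and ERF5 (1.32 ± 0.23) also rose.

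Defence genes rose in part. On the immunity list 12 of 24 were higher and 1 lower, and 11 rose. PBS3 (AT5G13320), an enzyme of salicylic acid synthesis, had 896, 1137 and 1108 with antimycin A and 338, 59.1 and 115 in mock, and rose by 2.97 ± 0.51. ICS1, which acts before it in that pathway, rose by 1.52 ± 0.18, the kinase FRK1 by 2.34 ± 0.38 and WRKY40 by 2.44 ± 0.29. PR5 was listed as lower (-1.30 ± 0.36) and lost its call with any library but the third mock library left out, at an adjusted p up to 0.175. PR1, EDS1, PAD4 and NPR1 are not listed. On the list of camalexin and indole metabolism 9 of 13 rose and 1 fell. CYP71B15 (AT3G26830), which makes the antimicrobial camalexin, had 16914, 12840.3 and 21693 with antimycin A and 1479, 2908 and 1779 in mock, and rose by 3.09 ± 0.28. MYB34, a regulator of indole glucosinolates, changed by -2.21 ± 0.22, while its relative MYB51 rose by 1.23 ± 0.19.

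On the jasmonate list 10 of 24 rose and 1, the storage protein VSP1, fell (-2.40 ± 0.40). CYP94B3 (AT3G48520), which inactivates jasmonoyl-isoleucine, had 742, 651 and 1114 with antimycin A and 72.4, 99.4 and 56.9 in mock, and rose by 3.43 ± 0.29. The repressors JAZ9 and JAZ5 rose by 2.35 ± 0.37 and 2.08 ± 0.32. Of 16 abscisic acid genes 5 were higher and 1 lower, with HAI1, a phosphatase of abscisic acid signalling, at 2.57 ± 0.35, and NCED3, which starts its synthesis, at 1.63 ± 0.29. RD29B changed by 1.36 ± 0.41 and did not pass. TTGACC or TTGACT, the W-box bound by WRKY factors, was found on either strand in 6 of the 13 listed immunity promoters, in 3 of the 11 that are not listed, in 41.4% of the higher nuclear genes and in 28.4% of all. The G-box CACGTG was found in 1 of the 6 listed abscisic acid genes and in 6.49% of all.

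Transcription factor families differed, beside shares of 7.17% higher and 10.1% lower among all genes tested. WRKY genes were higher in 18 (26.9%) and lower in 5 (7.46%) of 67 members (WRKY75 2.53 ± 0.34). NAC genes were higher in 14 (17.3%) and lower in 6 (7.41%) of 81, so the lower shares of both families were below that of all genes. MYB genes were higher in 15 (12.5%) and lower in 24 (20%) of 120 (MYB27 -4.27 ± 0.39). NAC015, a factor of root cap maturation, had 3.3, 0.0773 and 0.124 with antimycin A and 23.2, 24.9 and 14.2 in mock, a change of -3.61 ± 0.68. On the clock list 5 of 15 were higher, all 5 rose, and none was lower. These were the morning genes CCA1 (2.02 ± 0.30) and LHY (1.73 ± 0.21), together with RVE8 (1.53 ± 0.24), PRR9 (1.24 ± 0.27) and RVE1 (2.27 ± 0.24), which has a near-identical locus. PRR9 lost its call without the first treated, the second mock or the third mock library, at an adjusted p up to 0.0698. TOC1, GI, ELF4 and LUX, genes of the evening, are not listed. Sugar transporters were higher in 9 and lower in 1 of 37 (SWEET2 2.51 ± 0.44), and 5 rose without the first treated library. Band 7 and prohibitin proteins, membrane scaffolds counted after their values had been seen, were higher in 6 of 17 and lower in 0, with FLOT1 at 1.65 ± 0.25 and HIR2 at 1.39 ± 0.18.

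Starvation genes are known targets of SnRK1. On this list 12 of 25 members were higher and 1 lower, at a median log2 ratio of 1.25, but by the refit 3 rose, DIN2, GDH2 and PRODH1. DIN2 (AT3G60140), a beta-glucosidase induced by darkness, had 2585, 1279 and 8643 with antimycin A and 251, 556 and 253 in mock, a change of 3.22 ± 0.60 (adjusted p = 0.00436 in limma). BCAT2 (AT1G10070), which breaks down branched-chain amino acids, had 1874, 983 and 7174 with antimycin A and 462, 1605 and 1113 in mock, a change of 1.33 ± 0.67. DIN1 (AT4G35770), a marker of dark-induced senescence, had 6444, 4017 and 19699 with antimycin A and 1918, 5402 and 4235 in mock, a change of 1.18 ± 0.55. DIN2 had separate groups, whereas in BCAT2 and DIN1 the second treated library lay within the range of the mock libraries and the third was the highest of all 6. PRODH1 (AT3G30775), which breaks down proline, had 10093, 9570.2 and 13653 with antimycin A and 4502, 5904 and 5269 in mock, and rose by 1.08 ± 0.19. GDH2, a glutamate dehydrogenase, rose by 1.47 ± 0.32 and lost its call without the first or the third mock library, at an adjusted p up to 0.0727.

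The order of the treated libraries was shared over the list. The third treated library was the highest of its group in all 13 listed starvation genes, and the second mock library in 11 of 13. Without the second treated library 7 members rose, and without the third 3 rose and 1 fell. DIN10 changed by 0.92 ± 0.34, DIN4 by 1.08 ± 0.38, DIN9 by 1.01 ± 0.34, TPS11 by 1.07 ± 0.38, MCCA by 1.36 ± 0.56, IVD by 1.27 ± 0.38 and BGAL4, which has a near-identical locus, by 0.73 ± 0.44, and none of these 7 passed. DRM2 (AT2G33830), a dormancy-associated gene, was listed as lower. It had 2654, 1370.2 and 7096 with antimycin A and 5446, 9886 and 9049.6 in mock, with the third treated library inside the range of the mock libraries, and was listed in no other line. ASN1, DIN3, SEN5, BZIP63 and 8 further members are not listed.

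Among the other lines 19 of the 25 members were listed as higher in SnRK1aOX (5.55% of all genes tested there), 17 in jmj15 (6.63%) and 20 in crf6 (6.97%). In WT 18 were higher (5.83%) and 1 was lower. The 12 members listed as higher in both snrk1a and WT each had the smaller change in snrk1a. Their medians were 1.13 in snrk1a and 1.81 in WT. Among all genes listed as higher in both, the change was smaller in snrk1a in 361 of 964. The 11 listed in both snrk1a and SnRK1aOX were each smaller in snrk1a as well, beside 377 of all 902 such genes. Their medians were 1.18 in snrk1a and 1.70 in SnRK1aOX. Both comparisons use the same snrk1a libraries. The members share the order of libraries given above, so they do not count as separate observations. No difference of a single member passed its test. DIN4, for example, differed by -1.07 ± 0.49 from WT (adjusted p = 0.653 in limma), and DIN1 by -0.96 ± 0.69 from WT and by -1.52 ± 0.81 from SnRK1aOX. The part of the second treated library in this was not tested.

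**Figure D4:**
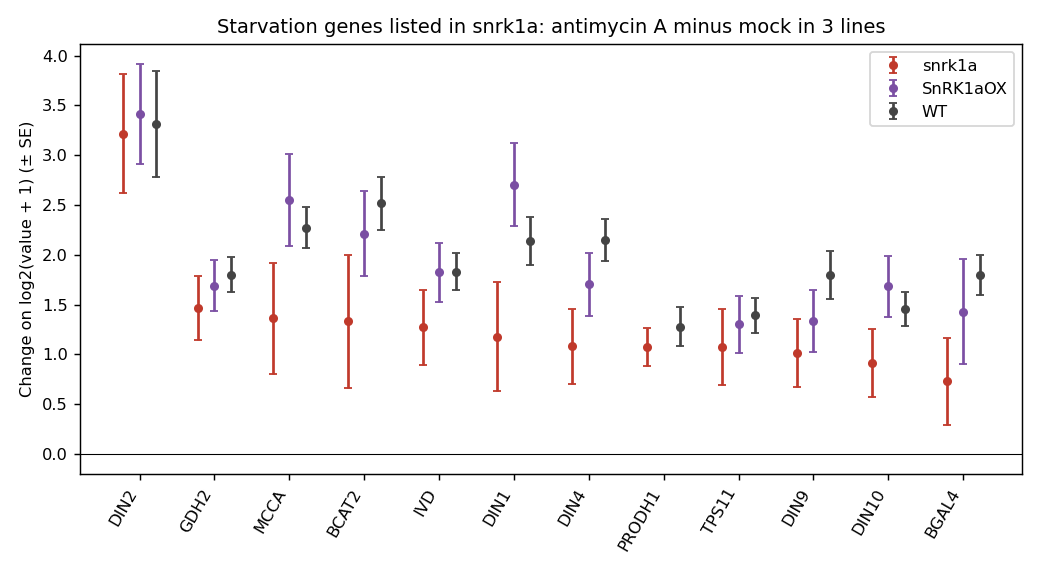
Change of the 12 starvation genes listed as higher in snrk1a, antimycin A minus mock on the log2(value + 1) scale, in snrk1a (red), SnRK1aOX (purple) and WT (black), with the standard error of each refit (n = 3 libraries per group). The red point is the lowest of its gene throughout, and its error bar overlaps those of the other lines in several genes. PRODH1 is not listed in SnRK1aOX.

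Of 16 SnRK1 subunits, cytokinin response factors and jumonji demethylases, 2 are listed, both lower (12.5%, near the 10.1% of all genes tested). CRF2 (AT4G23750), a cytokinin response factor, had 711, 652 and 563 with antimycin A and 1742, 1285 and 1429 in mock, a change of -1.20 ± 0.19. CRF1 changed by -1.16 ± 0.26, and lost its call without the first or the second mock library, at an adjusted p up to 0.07. KIN10, KIN11, AKINBETA1, AKINBETA2, AKINBETA3, SNF4, JMJ15 and CRF6 are not listed.

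Genes of cell division fell in the mutant. On the cell cycle list 13 of 21 members were lower, all 13 fell and none was higher, with a median log2 ratio of -1.38, beside -1.64 over all lower genes. Among the other lines 1 member was lower in SnRK1aOX (3.67% of all genes tested there), 2 in jmj15 (6.04%), 2 in crf6 (7.71%) and 3 in WT (8.84%), and 9 of the 13 were listed in no other line. Such listing is not a test of a difference between lines. The 3 members listed in both snrk1a and WT had median changes of -1.41 in snrk1a and -1.12 in WT, and 0 passed the test of a difference. CYCB1;2 (AT5G06150), a B-type cyclin that drives entry into mitosis, had 561, 456 and 406 with antimycin A and 1684, 1891 and 1591 in mock, a change of -1.87 ± 0.18 (adjusted p = 2.93e-04 in limma). MYB3R4 (AT5G11510), the factor that activates genes of the G2 and M phases, had 462, 337 and 328 with antimycin A and 1126, 979.6 and 872 in mock, a change of -1.41 ± 0.21. In both genes the groups did not overlap. Fewer cells of a type and less RNA per cell cannot be told apart in whole seedlings, for dividing cells as for the cell types given further on.

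AUR1 (AT4G32830), an Aurora kinase of the spindle, had 384, 258 and 287 with antimycin A and 845, 810.0 and 805 in mock, a change of -1.42 ± 0.20. KNOLLE (AT1G08560), the syntaxin that fuses vesicles at the new cell plate, had 1006, 698 and 777 with antimycin A and 1982, 2086 and 1772 in mock, a change of -1.25 ± 0.19. The mock libraries of both genes were close together and lay above all treated libraries. The cyclins CYCA1;1, CYCB1;4, CYCB1;3 and CYCB2;1 changed by -1.53 ± 0.19, -1.51 ± 0.20, -1.40 ± 0.24 and -1.39 ± 0.26, and CYCD3;1, a D-type cyclin of the G1 phase, by -1.24 ± 0.17. CDKB1;1, a mitotic kinase, changed by -1.21 ± 0.27 and lost its call without the third treated, the first mock or the second mock library, at an adjusted p up to 0.0688. Between 12 and 13 members fell with 1 library left out. The first treated library was the highest of its group in 12 of the 13 genes. CYCB1;1, CDKB2;1, CDKB2;2, CYCD3;2, CYCD3;3, CDC20.1, SMR5 and KRP1 are not listed.

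**Figure D5:**
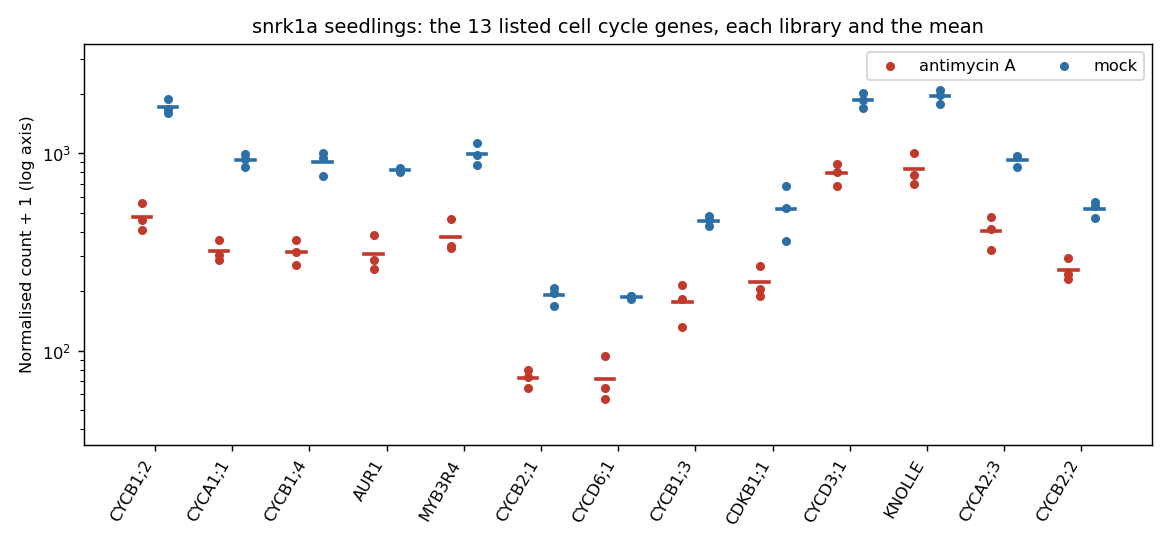
Normalised counts plus 1 (log axis) of the 13 listed cell cycle genes in the snrk1a libraries, antimycin A in red and mock in blue, each library as a point and the mean as a bar. In every gene all red points lie below all blue points. CDKB1;1 has the widest spread among its mock libraries.

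Motors and bundling proteins of the spindle and the phragmoplast, the structure that builds the new wall, fell beside these genes. They were counted after the values had been seen. Of 44 genes with a kinesin product name 18 were lower (40.9%, beside 10.1% of all genes tested), all 18 fell, and 13 of these were listed in no other line. In the other lines 3 of the 44 were lower in SnRK1aOX (3.67% of all genes tested there), 4 in jmj15 (6.04%), 2 in crf6 (7.71%) and 2 in WT (8.84%), and 1 was higher in jmj15. The 2 listed in both snrk1a and WT had median changes of -1.57 in snrk1a and -1.05 in WT, and 0 passed the test of a difference. ATK5 (AT4G05190), a kinesin of the spindle, had 626, 495 and 459 with antimycin A and 1780.4, 1833 and 1594 in mock, a change of -1.73 ± 0.18. NP3 (AT3G06030), a kinase of the cascade that drives cytokinesis, had 377, 329 and 286 with antimycin A and 993, 1106 and 991 in mock, a change of -1.64 ± 0.19. In both genes the libraries of each group were close together and the groups far apart. POK1 and POK2, which guide the phragmoplast to the division site, changed by -1.75 ± 0.26 and -1.31 ± 0.17, KINESIN-12B by -1.72 ± 0.21, and HIK, a kinesin that activates the cytokinesis cascade, by -1.25 ± 0.15. MAP65 proteins, which bundle microtubules, were lower in 3 of 6, all listed in no other line, with MAP65-4 at -1.53 ± 0.19, MAP65-5 at -1.48 ± 0.25 and MAP65-2 at -1.24 ± 0.16. Of 47 histone genes 7 were listed as lower (14.9%, beside 10.1% of all genes tested) and all 7 fell, while 1 was listed as higher and did not pass. Among the 7, AT5G10390 was at -1.29 ± 0.18.

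Many genes of the G2 and M phases carry the mitosis-specific activator element, whose core CAACGG or TAACGG is bound by MYB3R factors. This motif was added after the cell cycle genes had been seen. On either strand it was found in 7 of the 13 lower cell cycle promoters (53.8%), in 3 of the 8 cell cycle genes that are not listed, in 7 of the 18 lower kinesin genes (38.9%) and in 6 of the 26 that are not listed. The share was 9.34% among the higher nuclear genes, 13.6% among all lower genes and 10.8% of all nuclear protein-coding genes. CYCB1;2, with 4 matches, and AUR1 are shown with the matches in capitals, from RefSeq and build TAIR10.1. CYCB1;2 lies on the minus strand, with its promoter at chr5:1861704-1861953, and AUR1 on the plus strand, at chr4:15842193-15842442.
CYCB1;2: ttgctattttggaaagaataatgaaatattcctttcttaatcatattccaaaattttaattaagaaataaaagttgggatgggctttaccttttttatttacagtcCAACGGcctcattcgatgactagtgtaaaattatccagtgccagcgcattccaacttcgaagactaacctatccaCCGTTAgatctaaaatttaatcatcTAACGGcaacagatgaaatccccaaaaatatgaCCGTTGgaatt
AUR1: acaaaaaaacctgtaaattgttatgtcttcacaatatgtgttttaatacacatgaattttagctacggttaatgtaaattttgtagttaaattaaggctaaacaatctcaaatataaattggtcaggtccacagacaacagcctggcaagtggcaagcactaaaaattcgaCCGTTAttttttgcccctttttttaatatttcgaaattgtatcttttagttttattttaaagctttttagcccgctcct

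Genes of root cell types fell. On the root hair list 11 of 13 were lower and all 11 fell, at a median log2 ratio of -2.67 over the 12 listed. RHD2, an NADPH oxidase, rose by 1.30 ± 0.25. RSL4 (AT1G27740), the factor that sets root hair length, had 11.8, 3.03 and 11.4 with antimycin A and 103, 40.9 and 94.4 in mock, a change of -3.11 ± 0.58. EXPA7 (AT1G12560), an expansin of root hairs, had 69, 10.3 and 31.9 with antimycin A and 358, 174 and 298 in mock, a change of -3.17 ± 0.60. In both genes the second library of each group was the lowest, and the groups did not overlap. The wall proteins EXT13 and PRX44 changed by -3.32 ± 0.52 and -3.11 ± 0.41. Summed over the 7 root hair markers, values were 1528, 854 and 1366 with antimycin A and 3208, 2021 and 3439.7 in mock.

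On the endodermis list 7 of 9 were lower and all 7 fell, at a median log2 ratio of -2.43. CASP1 (AT2G36100), which organises the Casparian strip, had 76.1, 170.2 and 94.4 with antimycin A and 768, 493 and 549 in mock, a change of -2.46 ± 0.33. CASP2 and CASP4 changed by -2.38 ± 0.36 and -2.39 ± 0.37. The 6 listed endodermis markers of 7 summed to 159, 273 and 249 with antimycin A and to 1951, 1363 and 1475 in mock. None of the 5 mesophyll markers, of the 22 photosynthesis genes or of the 2 pollen markers is listed, so neither the presence of the shoot nor a change in it could be checked. PYK10 (AT3G09260), a beta-glucosidase of root endoplasmic reticulum bodies, was the most strongly reduced of the genes with the highest counts. It had 12970.1, 12275 and 14791 with antimycin A and 86001, 64670.3 and 67540.2 in mock, a change of -2.44 ± 0.19. DELTA-TIP (AT3G16240), a channel of the vacuole membrane, had 14580.1, 20905 and 25154 with antimycin A and 48754, 70047 and 55404 in mock, a change of -1.54 ± 0.24, and was listed in no other line.

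The root triterpene list had 8 of 13 members lower, of which 6 fell, with PEN1, which makes arabidiol, at -1.85 ± 0.30. Class III peroxidases, enzymes of the wall, were lower in 29 and higher in 7 of 62 genes, and AT1G44970 changed by -4.77 ± 0.38. Cysteine- and histidine-rich C1 domain proteins were lower in 50 and higher in 4 of 141, of which 34 fell. The counts of these 2 families were made after the values had been seen. On the flavonoid list 4 of 13 were lower and all 4 fell, with chalcone synthase CHS at -2.33 ± 0.29 and 4CL3 at -1.92 ± 0.27.

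Cytokinin genes were lower in 11 of 21 members, of which 10 fell, at a median log2 ratio of -1.85, and none was higher. AHK4 (AT2G01830), a cytokinin receptor, had 454, 424 and 572 with antimycin A and 2004, 1639 and 1837 in mock, a change of -1.92 ± 0.18. Its groups were far apart. The response regulators ARR4, ARR5, ARR6 and ARR7, which cytokinin itself induces, changed by -1.36 ± 0.18, -1.85 ± 0.21, -2.73 ± 0.31 and -1.41 ± 0.19. The synthesis genes IPT5 and CYP735A1 changed by -2.57 ± 0.29 and -3.01 ± 0.46. ARR16 changed by -1.02 ± 0.33 and did not pass.

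On the auxin list 2 of 23 rose (8.70%) and 5 fell (21.7%), beside 7.17% listed as higher and 10.1% as lower among all genes tested. GH3.3 (AT2G23170), an enzyme that inactivates auxin by conjugation, had 62946, 54244 and 104985 with antimycin A and 13891, 18954 and 17709 in mock, and rose by 2.09 ± 0.26, as did GH3.5 (1.26 ± 0.23). The carriers LAX3, AUX1 and PIN2 changed by -1.86 ± 0.23, -1.07 ± 0.17 and -1.16 ± 0.21, and the repressor IAA6 by -2.15 ± 0.32. Of 78 SAUR genes, early auxin targets counted after the values had been seen, 26 were lower and 2 higher. By the refit 25 fell, and 11 without the third mock library.

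Cell wall enzymes of growth were lower. Expansins, which loosen walls, were lower in 17 of 33 and higher in 0, and 16 fell, at a median log2 ratio of -2.38. EXPA11 (AT1G20190) had 397, 1268 and 918 with antimycin A and 6782, 7193 and 6547 in mock, a change of -3.14 ± 0.35. The treated libraries spread more than the mock libraries, and the groups were far apart. EXPB3 changed by -3.06 ± 0.22 and EXPA5 by -2.93 ± 0.22. Of 30 xyloglucan endotransglucosylases 16 were lower and 3 higher, with XTH13 at -5.28 ± 0.51 and XTH26 at -3.68 ± 0.32.

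Nutrient and secretion genes moved in both directions. Of 18 nitrate and ammonium genes 4 rose (22.2%), and 6 were lower (33.3%), of which 5 fell. The nitrate transporters NRT2.5 and NPF7.2, known from starvation and stress, rose by 3.09 ± 0.55 and 2.33 ± 0.17. NRT2.1 (AT1G08090), the main high-affinity nitrate transporter, had 166, 256 and 179 with antimycin A and 1444, 425 and 686 in mock, a change of -1.93 ± 0.40. Its first mock library was far above the other two. Of 18 iron genes 3 were lower (16.7%, beside 10.1% of all genes tested) and 1 higher (5.56%, beside 7.17%). IRT1, the root iron importer, fell (-3.67 ± 0.51), while FIT changed by -1.23 ± 0.42 and did not pass. On the list of the unfolded protein response in the endoplasmic reticulum 2 of 15 rose (13.3%) and 5 fell (33.3%). The shares among all genes tested were 7.17% listed as higher and 10.1% as lower. The transcription factor BZIP60 rose by 1.47 ± 0.15, and the chaperones CNX1 and CRT1A changed by -1.20 ± 0.16 and -1.25 ± 0.16. ERDJ3A rose by 1.60 ± 0.37, but lost its call without the first or the third treated library and without the second or the third mock library, at an adjusted p up to 0.0911.

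Of the 4115 genes, 914 (22.2%) were listed in snrk1a and in no other line, 322 higher and 592 lower, and 1125 were listed in all 5 lines. Listing in 1 table is not a test of a difference between lines. The 914 had a median absolute log2 fold change of 1.30, against 1.69 in the 3201 other genes, and 39.4% of them lay under 1.2, against 14.3% of the others. By the refit 69.6% of the 914 and 86.1% of the others passed. Besides ACS11 and DTX4 the 8 largest rises among the 914, ranked as above, were those of AT3G16330, an Avr9/Cf-9 rapidly elicited protein (1.78 ± 0.22), AT1G21520 (1.68 ± 0.16), AT1G43910 (1.55 ± 0.18), the aspartyl protease AT4G16563 (1.54 ± 0.18), the Sec14p-like protein AT2G18180 (1.53 ± 0.26) and the receptor kinase CRK39 (1.53 ± 0.28). AT1G21520, of unknown function, had 9914, 9599.7 and 8139 with antimycin A and 2605, 2841 and 3188 in mock. Its groups were far apart and each was narrow.

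Besides ATK5, POK1 and NP3 the 8 largest falls were those of the mechanosensitive channel MSL9 (-2.31 ± 0.39), AT4G38062 (-1.89 ± 0.24), the lectin AT2G25980 (-1.97 ± 0.45), the calmodulin-binding protein AT4G21820 (-1.79 ± 0.26) and AT2G28620 (-1.65 ± 0.17). AT2G25980 lost its call without the first or the third mock library, at an adjusted p up to 0.0865. MSL9 (AT5G19520) had 213, 75.5 and 239 with antimycin A and 801, 705 and 839 in mock. Its second treated library was the lowest, and separate groups were a condition of the ranking. AZI1 (AT4G12470), a lipid transfer protein of systemic immunity with very high counts, had 232472, 264309 and 247351 with antimycin A and 111176, 105924 and 117538 in mock, rose by 1.15 ± 0.21 and was listed in no other line. It was named after its values had been seen.

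The mutant shared 2440 genes with WT, which are 59.3% of its own list and 70.1% of the list of WT, and all but 4 had the same direction. It shared 1575 with SnRK1aOX, 38.3% of its own list and 72.0% of that of SnRK1aOX, all but 3 in the same direction. The difference of the changes was tested in limma for each shared gene. A gene listed in only 1 of the 2 lines has no value in the other and could not enter the test. The genes tested had thus been called in both lines, nearly all in the same direction, which itself favours a low count of differences. Between snrk1a and SnRK1aOX 1 of 1575 genes passed (0.0635%), AT4G03470, and at an unadjusted p under 0.05 the change was above that of SnRK1aOX in 54 genes and below it in 104. Between snrk1a and WT 0 of 2440 genes passed (0%), and at an unadjusted p under 0.05 the change was above that of WT in 82 genes and below it in 102. The median standard error of a difference from WT was 0.449 on the log2 scale. Differences of that size could not be told from 0 in single genes, and much larger ones did not pass either. An absolute difference over 1 was found in 285 genes. AT5G35940 differed from WT by -2.53 ± 0.46, at an adjusted p of 0.153 in limma, the lowest of the 2440. The count of 0 therefore does not show that the changes were alike. AT4G03470, an ankyrin repeat protein, had 0.804, 0.0199 and 0.032 with antimycin A and 11.5, 17.7 and 19.6 in mock in snrk1a and 2.12, 6.55 and 4.26 with antimycin A in SnRK1aOX, where it was listed at 0 in mock. The changes differed by -6.09 ± 0.79 (adjusted p = 0.00673 in limma). Without the third snrk1a mock library 0 genes differed from SnRK1aOX in this direction, and 0 did so with replicate number as a block in the fit. Without the first snrk1a mock library the change of 4 genes passed as above that of SnRK1aOX.

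Among the 964 genes listed as higher in both lines, the change was larger in snrk1a than in WT in 603, with a median difference of 0.13. For the mitochondrial dysfunction genes it was larger in 17 of 18, with a median difference of 0.65. For the heat shock genes it was larger in 6 of 25, with a median difference of -0.30. Against SnRK1aOX the mitochondrial dysfunction genes were larger in snrk1a in 16 of 17 (median difference 0.55) and the heat shock genes in 20 of 25 (0.55), beside 525 of all 902 (0.11). Among the 1472 genes listed as lower in both snrk1a and WT the fall was larger in snrk1a in 868. The 9 root hair genes in both had a median difference of -0.83 from WT and the 6 endodermis genes of -0.96, beside -0.10 over the 1472. None of these members passed its own test.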

How the data were processed

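Of 30 RNA libraries of whole seedlings, the 6 of snrk1a are the subject here, and those of SnRK1aOX and WT serve for comparison. Groups came from the sample titles, and columns were matched by name, with kin10-2 taken as snrk1a and KIN10V17 as SnRK1aOX because KIN10 is SnRK1a. Per the submitters' processing notes, reads were aligned to TAIR10 with Bowtie 0.12.2. How reads were counted, normalised and tested, and whether strand was used, is not given in the sources.

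The deposited tables give a signal per gene and library. It was taken as a count adjusted by the authors for library size within each table, so tables were normalised separately and depth is unknown. Low values such as 0.0199 and 0.032 for AT4G03470 in treated snrk1a libraries are not plain multiples of a read. A simple scaling of counts can therefore not be assumed. Beside it the authors deposited log2 fold changes, a p-value, a q-value and its -log10. The listed genes all have q under 0.05 and a log2 fold change beyond 1 in either direction, and q, p and rank imply 23834 genes tested in snrk1a. Whole reads were not recovered from the values, so no count model was used.

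From these values, log2(value + 1) was fitted per table with limma 3.58.1 (R 4.3.3), with empirical Bayes moderation and trend, two-sided, with Benjamini-Hochberg adjustment over the 23834 genes. Differences between lines are differences of within-table changes, adjusted over the genes listed in both. The code was tested on simulated data. Summaries used Python 3.11.15 and pandas 2.3.3. Near-identical loci had at least 95% identity over 80% of the shorter transcript (blastn 2.17.0). Promoters are the 250 bases before the RefSeq start in TAIR10.1. Values below 0.5 in all libraries of a group, or printed as 0, are treated as listed at 0.

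The genes, the 25 lists and the tests were chosen with earlier results of these data known. The lists are heat shock, mitochondrial dysfunction, alternative respiration, mitochondrial NAC regulators, starvation, SnRK1 and partners, immunity, camalexin and indole, jasmonate, ethylene, abscisic acid, rapid stress, cytokinin, auxin, root hair, endodermis, nitrate and ammonium, iron, unfolded protein response, cell cycle, photosynthesis, circadian clock, flavonoid, root triterpene and antioxidant. To these come 11 families by gene symbol and 8 groups by product name added later. Genes were named by rule, as the 10 largest rises and falls, up to 4 members with the largest change on each list, the 8 largest rises and falls listed in no other line, the starvation and SnRK1 genes, the extremes among the genes with the highest counts and those with opposite directions. Further members of a list or family, mtHsc70-1, AZI1 and AT1G60750 were named after their values had been seen. Alternatives were other pseudocounts, a filter on low values, rescaled libraries, no trend, a replicate block, stricter thresholds and each library left out.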

Additional observations from a re-analysis of the deposited data

Results flagged for a closer look

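The change of AT4G03470 in snrk1a was below that in SnRK1aOX by a difference of -6.09, the only difference between those lines that passed its test in limma, at normalised counts under 20 in every library. Without the third snrk1a mock library 0 genes passed in this direction, and 0 passed with the replicate block. The authors' log2 fold changes of this gene had opposite signs, with a difference of -10.3.

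Further genes were listed in opposite directions in snrk1a and another line, with treated and mock libraries separate in both. Against WT the authors' log2 fold changes differed by -2.45 for AT5G35940, 4.77 for AT2G19610 and 9.96 for AT1G06925, and in limma none of these passed. The lectin AT5G35940 had 88, 40.5 and 77.9 with antimycin A and 125, 164 and 167 in mock in snrk1a, and 279, 370.1 and 332 with antimycin A and 145, 91.4 and 158 in mock in WT (adjusted p = 0.153 in limma). Against SnRK1aOX they differed by -2.82 for the kinase CIPK20 and by -5.76 for AT5G46890, and neither passed in limma (adjusted p = 0.179 for each).

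Against jmj15 the differences were -2.94 for the arabinogalactan protein AGP30, -2.83 for the homeobox gene WOX12, 7.89 for AT2G19850 and -10.3 for GolS4, and against crf6 they were 2.94 for AT1G29100, 7.88 for ARI16, -10.5 for AT1G30920 and 10.3 for AT4G09530. The differences from jmj15 and crf6 were not tested. In AT1G06925, AT2G19850, GolS4, ARI16, AT1G30920 and AT4G09530 at least 1 group was listed at 0 in all its libraries, and their sizes rest on very low counts.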

How the results depend on the processing

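Under other pseudocounts, a mean of at least 10, rescaled libraries, no trend and the replicate block, the genes that rose numbered 1378 to 1470 and those that fell 1844 to 2054. With each snrk1a library left out they numbered 1232 to 1381 and 1453 to 1791. An absolute log2 fold change over 2 left 461 higher and 831 lower genes, of which 68 and 128 were listed in no other line. A q under 0.001 left 1355 higher and 1743 lower genes. Of all list members, 141 were higher and 80 lower, 128 and 73 by the refit, and 133 and 79 without near-identical loci. Differences from WT numbered 1 above without the trend, and 0 to 1 above and 0 to 1 below with each library left out. Differences from SnRK1aOX numbered 0 below with a mean of at least 10 and 0 with the replicate block. They numbered 0 to 4 above, with 4 without the first snrk1a mock library, and 0 to 2 below, with 0 without the third. AT4G03470 was not tested at a mean of at least 10, which it does not reach. For the other settings the cause was not tested. Replicate numbers did not pair the libraries. Deviations from the group means correlated at 0.0175, 0.038 and 0.0159 for equal numbers, and the first treated library correlated more with the third mock library (0.0554). With the block 1470 genes rose and 2011 fell. Of 205 genes named by rule, 181 passed the refit and 155 kept their call under every setting, and no setting turned the direction of any. Depth is unknown, 3 libraries per group limit the precision, and genes outside the authors' list have no value.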
